A study of Rattus norvegicus with 15 samples.

Results

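The endoplasmic reticulum (ER) secretory and folding machinery was described here through 47 genes of the 22436 in the deposited rat prostate expression table. The members were chosen by gene identity and fell into 8 roles: 5 signal recognition particle (SRP) genes, 9 translocon genes, 3 signal peptidase genes, 5 oligosaccharyltransferase genes, 9 lumenal chaperones, 6 lectin and disulfide chaperones, 4 regulators of the unfolded protein response and 6 genes of ER-associated degradation (ERAD). RNA sequencing covered prostate tissue of SD rats in 3 groups of 5 libraries, numbered 6 to 10 in each. LIPUS rats were treated with low-intensity pulsed ultrasound for 4 weeks in a study of a rat prostatitis model; the sample titles give 1.0 W/cm2 and the treatment field 1.5 W/cm2, and which was used was left unresolved. Model rats carried the prostatitis model without ultrasound, and Control rats were untreated. The labels used here give neither the agent that induced prostatitis nor the age or number of animals, so the p-values measure the spread between libraries that are not stated to come from separate animals.

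Proteins bound for secretion or membranes are recognised as they leave the ribosome by the SRP, threaded through the Sec61 translocon, cut by signal peptidase and given N-glycans by oligosaccharyltransferase. Lumenal chaperones, lectins and disulfide isomerases fold them, ERAD removes those that fail, and the unfolded protein response adjusts the supply of this machinery through Xbp1, Atf6, Atf4 and Ddit3. Prostate glands consist largely of luminal cells that secrete protein in bulk, so that this machinery is prominent in the tissue.

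Sequences show one feature shared by several of the best-known target genes of this response. RefSeq promoter windows (GRCr8 assembly, 250 bases before to 50 after the start site) were matched for 41 of the 47 genes. The ER stress element, CCAAT and CCACG separated by 9 bases on either strand, occurred in 7 of these 41 windows (17.1%), against 22 of all 33469 windows (0.0657%). The stretches of 6 of these 7 windows are printed to show the element at its distance from the start site, with the CCAAT and CCACG boxes (or their complements) in capitals and each sequence read along the gene's own strand.
Hspa5 (chr3:38452963-38453001, plus strand, bases -53 to -15): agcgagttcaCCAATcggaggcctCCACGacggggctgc
Hsp90b1 (chr7:23012337-23012479, minus strand, bases -186 to -44, 2 elements): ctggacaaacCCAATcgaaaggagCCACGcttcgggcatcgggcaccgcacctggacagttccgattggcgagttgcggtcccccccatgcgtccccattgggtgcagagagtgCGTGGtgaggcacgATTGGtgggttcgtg
Dnajc3 (chr15:102432524-102432562, plus strand, bases -143 to -105): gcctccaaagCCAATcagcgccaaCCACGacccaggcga
Creld2 (chr7:121789229-121789267, plus strand, bases -155 to -117): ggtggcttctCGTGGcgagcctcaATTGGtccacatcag
Calr (chr19:40213125-40213163, plus strand, bases -242 to -204): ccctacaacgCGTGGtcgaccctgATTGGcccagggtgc
Xbp1 (chr14:84604548-84604586, plus strand, bases -75 to -37): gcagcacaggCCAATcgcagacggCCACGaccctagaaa

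The second form of the element, ATTGG and CCACG separated by 1 base, was present in Hyou1, Dnajb11 and Herpud1 (3 of 41 windows, 7.32%, against 0.0508% of all windows). The CCACG box alone, which lies inside both forms, was in 29 of 41 windows (70.7%) against 31.6% of all. TGACGTG, the core of the unfolded protein response element, was found in Hspa5, Hyou1, Ssr4 and Srp19 (9.76% against 1.81%), and the C/EBP-ATF response element (TGATG and AA separated by 1 base) in Herpud1 (2.44% against 3.98%). The members were chosen to include the unfolded protein response and known targets of it, so these shares were partly set by that choice. Each member was searched in 1 window, and every window was counted in the background. These matches describe letters in the windows and do not show binding. With all 15 libraries, all 7 holders of the first form had negative log2 changes against Control. So had 35 of all 47 members in LIPUS and 29 in Model. Changes of the 7 were -0.33 to -0.69 in LIPUS and -0.24 to -0.96 in Model. The medians of all members were -0.41 and -0.24, and that of all tested genes was -0.15 in both. Each of the 7 was lowest in library Model 7. Without that library, the Model changes of Hsp90b1 (0.07), Creld2 (0.08) and Canx (0.05) were positive and those of the others negative. Xbp1 was called lower in LIPUS against Control, and the other 6 were called in no comparison of all 15 libraries.

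The libraries held 29672833 to 36401010 reads, recovered from the deposited FPKM (fragments per gene length and library depth). Mitochondrially encoded genes took 59.6% ± 15.7 of reads in LIPUS, 34.9% ± 9.18 in Model and 4.23% ± 0.406 in Control (SD, n = 5 each), which lowers the FPKM of every nuclear gene where that share is high. Levels below are therefore FPKM scaled by each library's median ratio over 10313 genes, and changes are on the scale of log2(scaled FPKM + 0.1). After scaling, the median change of all 12490 tested genes was -0.02 in LIPUS against Model, -0.15 in LIPUS against Control and -0.15 in Model against Control; without scaling it was -0.60, -1.48 and -0.90. The table is of bulk tissue, in which fewer cells of a type and less RNA per cell cannot be told apart. One library stood apart: in Model 7, mRNAs of ventral prostate secretory proteins took 5.40% of reads against 0.0205% to 1.44% in the other 4 Model libraries, and those of dorsolateral proteins 0.0238% against 6.86% to 12.9%. Results were therefore also computed without it, and the calls that differ are given after the roles.

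Marker genes moved with the groups as well. Summed scaled FPKM of the 4 ventral secretory markers ran from 11825 to 192020 in LIPUS, 250.5 to 59914 in Model and 82222 to 137455 in Control, and that of the 2 dorsolateral markers from 4623 to 44864, 265.5 to 180312 and 2324 to 35226 in the same groups. The 6 seminal vesicle markers summed to 473 to 22375 in LIPUS, 39.8 to 99357 in Model and 281 to 54763 in Control. All 7 luminal epithelial markers were detected and summed to 422 to 574 in LIPUS, 429 to 921 in Model and 365 to 479 in Control. Epithelial RNA was thus present in each group, and the share of seminal vesicle in the tissue was not tested. The 11 macrophage markers summed to 175 to 655 in LIPUS, 87.1 to 269.6 in Model and 74.2 to 110.1 in Control, and the 7 fibroblast markers to 70.8 to 467, 52.3 to 153 and 424 to 717. Plasma and B cell markers, of a cell type rich in ER, were low: the 8 of 11 in the table summed to 3.59 to 14.3, 0.334 to 6.42 and 5.17 to 10.6. The 5 smooth muscle markers summed to 173 to 816 in LIPUS, 71.0 to 609 in Model and 592 to 1419.5 in Control. The 5 mast cell markers summed to 3.84 to 19.1 in LIPUS, 0.968 to 2.07 in Model and 5.99 to 8.76 in Control, Model lying below both other groups. No marker was at 0 in all libraries, and the part of these cell types in the results below was not tested.

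A call means a Benjamini-Hochberg adjusted p under 0.05 over all 12490 genes in limma's moderated test on all 15 libraries; all 47 members were tested. In Model against Control, 6 of 47 members rose and 5 fell, where 15.3% of all tested genes rose and 20.2% fell. In LIPUS against Model, 1 member rose and 1 fell, where 2.73% of all genes rose and 1.49% fell. In LIPUS against Control, 8 members rose and 5 fell, against 11.6% and 14.3% of all genes. Median changes of the members were -0.24, -0.20 and -0.41 in these comparisons. The 3 comparisons share libraries pairwise. Of the members called against Control, Atf4, Ddit3, Sec61b, Srp9, Srp14 and Srp19 were higher in both LIPUS and Model, and Edem1, Sec63 and Spcs3 lower in both. As shares, 12.8% of members rose and 10.6% fell in Model against Control and 17.0% rose and 10.6% fell in LIPUS against Control. The split depended on scaling: with FPKM as deposited 0 members rose and 42 fell in LIPUS against Control, 1 rose and 10 fell in LIPUS against Model, and 1 rose and 26 fell in Model against Control. Of all 12490 tested genes, 119 rose and 9296 fell, 163 and 1657, and 368 and 5382 in the same order. With quantile normalization the member counts were 3 and 17, 1 and 0, and 4 and 22 in the same comparisons. Those of all tested genes were then 1710 and 1554, 261 and 218, and 2527 and 2121. Scaling by nuclear reads gave 7 and 9, 1 and 0, and 6 and 11 members. All tested genes then gave 1028 and 1781, 239 and 76, and 1244 and 2854.

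**Figure D1:**
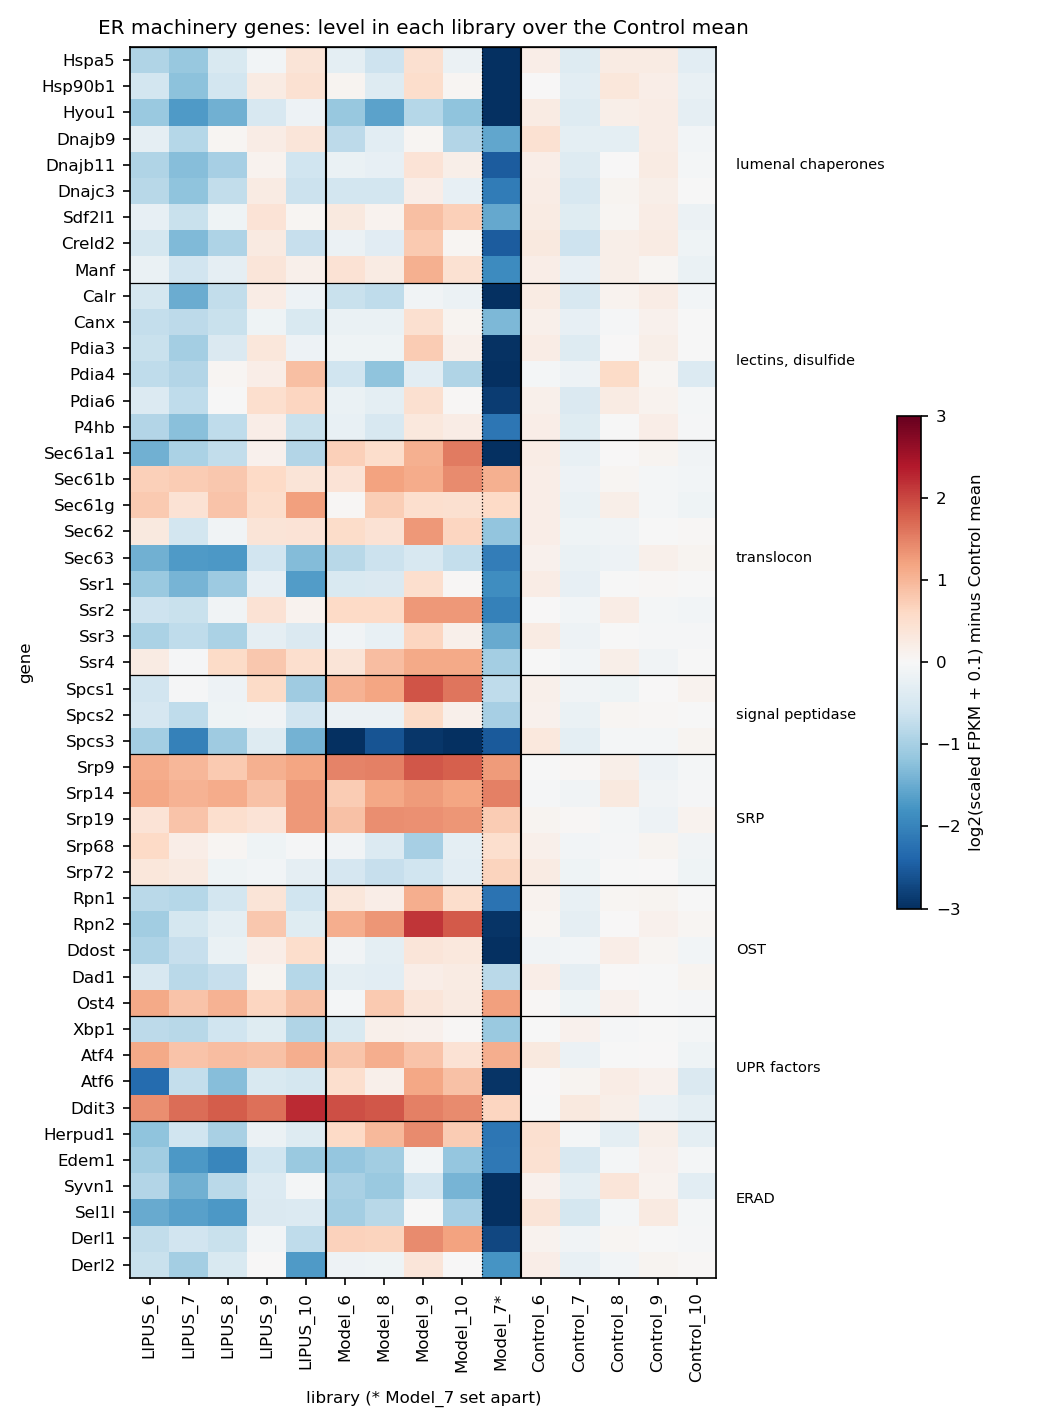
Each row is one of the 47 genes, ordered by role, and each column a library, with LIPUS left, Model in the middle (Model 7 last, starred) and Control right; colour is log2(scaled FPKM + 0.1) minus the Control mean, drawn at the limit beyond -3 or 3. Srp9, Srp14, Srp19, Atf4 and Ddit3 are above the Control mean in LIPUS and Model, Spcs3 is below it in both, and Model 7 is the darkest blue column.

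Of the 5 SRP genes, 3 were called higher in each comparison with Control, where 11.6% of all tested genes were called higher in LIPUS and 15.3% in Model. These 3 were 760 to 1328 bases long, and in Model against Control 44.5% of all genes up to 1 kb and 24.9% of those of 1 to 2 kb were called higher. Srp9 and Srp14, which form the dimer that pauses translation, and Srp19, which binds the particle's RNA, rose against Control in both LIPUS and Model, while Srp68 and Srp72, the large paired subunits, were not called. Srp9 (gene ID 690345) had 59.4, 54.8, 47.6, 57.8 and 62.5 scaled FPKM in LIPUS, 77.3, 67.1, 78.9, 100.1 and 95.2 in Model, and 27.3, 28.2, 31.2, 24.6 and 26.3 in Control. The 3 groups did not overlap: every Model value was above every LIPUS value, and every LIPUS value above every Control value. In limma, Srp9 changed by 1.03 ± 0.14 (SE) in LIPUS against Control (adjusted p = 0.00011) and by 1.59 ± 0.14 in Model against Control (adjusted p = 4.3e-06, 3.01-fold), although the LIPUS difference turned to -0.40 without scaling. Between LIPUS and Model it fell by 0.56 ± 0.14 (adjusted p = 0.037), a call lost when only the 2 groups were fitted (adjusted p = 0.20) and in 15 other settings.

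Srp14 (gene ID 296076) had 168, 156, 164, 139 and 185 scaled FPKM in LIPUS, 129, 217, 170, 184 and 171 in Model, and 73.7, 70.1, 92.6, 70.2 and 73.3 in Control. LIPUS and Model overlapped, and both lay above Control throughout. It was 1.10 ± 0.15 higher in LIPUS (adjusted p = 0.00015) and 1.18 ± 0.15 higher in Model (adjusted p = 4.2e-05) than in Control by limma, with -0.34 in LIPUS without scaling. Srp19 rose by 0.70 ± 0.19 in LIPUS (adjusted p = 0.013) and 1.14 ± 0.19 in Model (adjusted p = 0.0003) against Control, with -0.73 in LIPUS without scaling and -0.12 once the trend with gene length was removed. Srp68 ran from 21.7 to 35.9 scaled FPKM in LIPUS, 11.9 to 33.9 in Model and 22.1 to 26.2 in Control, and Srp72 from 23.5 to 35.7, 17.3 to 44.7 and 25.8 to 33.7; Model 7 gave the highest Model value of both. RefSeq names 1 gene copy of Srp14, 2 of Srp19 and 1 of Srp72; how shared reads were counted is not given in the sources used here, which leaves these 3 uncertain.

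**Figure D2:**
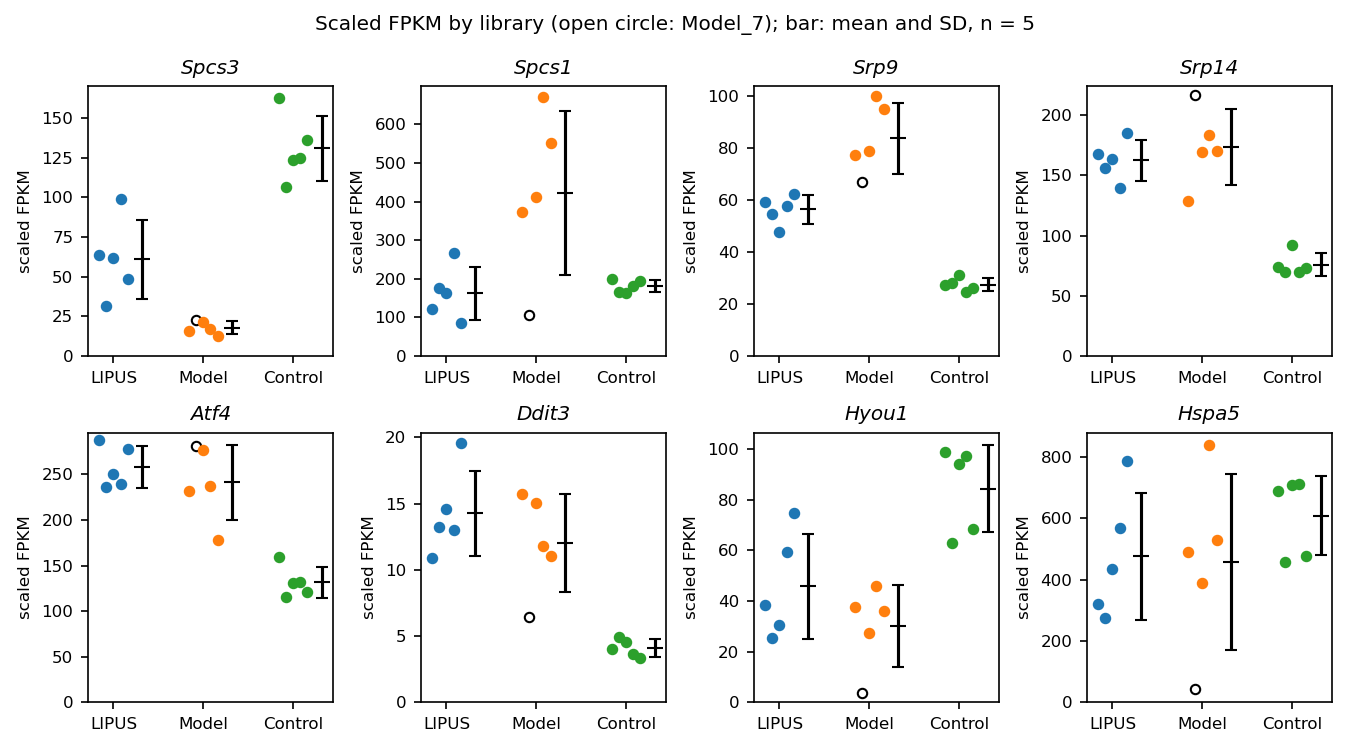
Scaled FPKM of 8 genes in each library, with LIPUS left, Model in the middle and Control right (points; the open circle is Model 7; bars are mean and SD, n = 5). Spcs3 lies lowest in Model and Srp9 highest in Model, with no overlap between any 2 groups, while Spcs1, Hyou1 and Hspa5 show Model 7 below the other Model libraries.

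The translocon genes split by member. Sec61b, the beta subunit of the channel, was higher than Control in both LIPUS and Model, whereas Sec63, the membrane J-protein that recruits BiP to the channel, was lower in both. Sec61b (gene ID 298068) had 298, 308, 319, 274 and 238 scaled FPKM in LIPUS, 242, 379, 420, 393 and 487 in Model, and 210, 164, 191, 176 and 173 in Control. All LIPUS and Model values lay above all Control values. By limma Sec61b was 0.65 ± 0.18 higher in LIPUS (adjusted p = 0.015; -0.78 without scaling, -0.14 with quantile normalization and -0.35 with the length trend removed) and 1.04 ± 0.18 higher in Model (adjusted p = 0.00042; -0.03 with the length trend removed). Sec63 (gene ID 309858) had 11.0, 9.1, 9.01, 20.1 and 12.2 scaled FPKM in LIPUS, 16.8, 7.02, 19.1, 21.6 and 18.1 in Model, and 33.1, 26.0, 26.9, 33.3 and 31.5 in Control. Both groups lay wholly below Control, with LIPUS 9 well above the other 4 LIPUS libraries. The difference was -1.35 ± 0.28 in LIPUS (adjusted p = 0.0029) and -0.95 ± 0.28 in Model (adjusted p = 0.017) by limma; with the length trend removed only LIPUS stayed under the threshold, and the Model change was -0.47 (adjusted p = 0.18).

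Sec61g, the gamma subunit (gene ID 689134), had 380, 300.05, 402, 319 and 515 scaled FPKM in LIPUS, 227, 334, 367, 314 and 309.6 in Model, and 254, 193, 250.3, 210.3 and 203 in Control. LIPUS lay above Control without overlap, and Model overlapped both. It was 0.77 ± 0.18 higher in LIPUS than in Control (limma adjusted p = 0.0058), a direction that turned without scaling (-0.67), with quantile normalization (-0.27) and with the length trend removed (-0.34). RefSeq names 13 copies of this gene, of which 3 are in the deposited table, at no more than 0.213 FPKM. How shared reads were counted is not given, so its reads remain uncertain. Ssr1, the alpha subunit of the translocon-associated protein complex, was also called lower in LIPUS against Control. Sec61a1, the pore-forming subunit, ran from 36.2 to 107 scaled FPKM in LIPUS, 12.3 in Model 7 and 142 to 290 in the other Model libraries, and 84.6 to 116 in Control. Sec62, the partner of Sec63, ran from 40.04 to 77.2 in LIPUS, 25.8 in Model 7 and 78.8 to 144 in the other Model libraries, and 53.7 to 66.7 in Control. Ssr2, Ssr3 and Ssr4, the other subunits of that complex, were not called.

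With all libraries, signal peptidase held the largest change among the members in LIPUS against Model and in Model against Control; without Model 7, Rpn2 (-1.89) exceeded Spcs3 (1.78) in size in LIPUS against Model. Spcs3, a noncatalytic subunit of the enzyme that cuts signal peptides, was lowest in Model, intermediate in LIPUS and highest in Control. Spcs3 (gene ID 680782) had 63.8, 31.8, 62.1, 99.3 and 48.5 scaled FPKM in LIPUS, 15.8, 22.6, 21.4, 17.1 and 12.6 in Model, and 163, 107, 124, 125 and 136 in Control. The 3 groups did not overlap, and Model 7 (22.6) was here the highest Model library. By limma Spcs3 was -2.88 ± 0.25 in Model against Control (adjusted p = 5.2e-06, 7.36-fold lower), -1.18 ± 0.25 in LIPUS against Control (adjusted p = 0.0034, 2.27-fold lower) and 1.70 ± 0.25 in LIPUS against Model (adjusted p = 0.0047, 3.24-fold higher). The call between LIPUS and Model was lost when only those groups were fitted, with the same change, an SE of 0.29 and adjusted p = 0.066; in that fit 1 of all tested genes was called higher, against 341 in the fit of all groups. One pseudogene of Spcs3 is named in RefSeq, which leaves its level uncertain.

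Spcs1, another noncatalytic subunit (gene ID 290555), showed another order. It had 121, 176, 163, 267 and 86.3 scaled FPKM in LIPUS, 373, 106.5, 412, 669.8 and 553 in Model, and 199, 166, 164, 181 and 193 in Control. The other 4 Model libraries lay above every LIPUS and Control library, and Model 7 lay below every Control library. Spcs1 was not called in any comparison of all 15 libraries (1.00 ± 0.41 in Model against Control, adjusted p = 0.069; -1.25 ± 0.41 in LIPUS against Model, adjusted p = 0.081). Without Model 7, limma gave 1.44 in Model against Control (adjusted p = 0.00056) and -1.69 in LIPUS against Model (adjusted p = 0.00074). Spcs2 ran from 44.6 to 69.4 scaled FPKM in LIPUS, 37.8 to 111 in Model and 65.3 to 81.8 in Control and was not called.

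Of the oligosaccharyltransferase genes, Ost4, a small membrane subunit, was called, and 4 of 5 were not. Ost4 (gene ID 100188932) had 294, 241, 272, 207 and 244 scaled FPKM in LIPUS, 127, 312, 228, 171 and 159 in Model, and 135, 122, 145, 132 and 129 in Control. LIPUS lay above Control throughout, and Model overlapped both. It was 0.92 ± 0.20 higher in LIPUS than in Control by limma (adjusted p = 0.0043), a direction that turned without scaling (-0.52) and with the length trend removed (-0.07); RefSeq names 1 pseudogene of it. Rpn2, a ribophorin, had the widest spread of the 47 genes within Model, with 16.8 scaled FPKM in Model 7 and 278 to 573 in the other 4, against 63.4 to 228 in LIPUS and 107 to 142 in Control. Rpn1, Ddost and Dad1 were not called in the comparisons of all 15 libraries.

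Among the 9 lumenal chaperones, Hyou1 was called lower in Model against Control and no other member was called in any comparison by limma or limma-voom; at an unadjusted p under 0.05, 2 were lower in Model against Control and 0 differed in the comparisons with LIPUS. Hyou1 is the nucleotide exchange factor of BiP. Hyou1 (gene ID 192235) had 38.5, 25.5, 30.6, 59.5 and 74.8 scaled FPKM in LIPUS, 37.6, 3.87, 27.3, 46.1 and 36.0 in Model, and 98.9, 63.0, 94.1, 97.4 and 68.5 in Control. Model lay wholly below Control, and LIPUS overlapped both. The difference of Model from Control was -1.83 ± 0.53 (limma adjusted p = 0.015, 3.56-fold lower) with all libraries and -1.19 (adjusted p = 0.0032) without Model 7. Hspa5, which encodes BiP itself and was the most abundant member of this role (gene ID 25617), had 321, 274, 434, 567 and 787 scaled FPKM in LIPUS, 489.95, 42.8, 389, 839 and 529.6 in Model, and 689.8, 459, 707, 713 and 477 in Control. The groups overlapped except for Model 7, which was far below the other 14 libraries. Hspa5 was not called (-0.43 in LIPUS and -0.88 in Model against Control, 0.45 in LIPUS against Model).

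The other 7 lumenal chaperones were Hsp90b1, Dnajb9, Dnajb11, Dnajc3, Sdf2l1, Creld2 and Manf. Hsp90b1, the ER member of the Hsp90 family, ran from 190 to 621 scaled FPKM in LIPUS, 25.9 in Model 7 and 343 to 646 in the other Model libraries, and 361 to 565 in Control. Manf, a secreted survival factor of the ER, ran from 24.6 to 46.6 in LIPUS, 9.73 in Model 7 and 43.2 to 76.3 in the other Model libraries, and 30.8 to 41.9 in Control. The lumenal chaperones' median change was -0.65 in Model against Control, 0.01 in LIPUS against Model and -0.43 in LIPUS against Control; without Model 7 the first was 0.04 and the second -0.41.

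With all 15 libraries, none of the 6 lectin and disulfide chaperones was called in any of the 3 comparisons by limma or by limma-voom on the recovered reads; at an unadjusted p under 0.05 there was 1 higher in LIPUS against Model, 1 lower in Model against Control and 0 in LIPUS against Control by either. Calreticulin, Calr, binds monoglucosylated glycans in the lumen and was the most abundant of them (gene ID 64202), with 736, 383, 645, 1244 and 961 scaled FPKM in LIPUS, 673, 127, 632, 998 and 941 in Model, and 1258, 762, 1144, 1256 and 1014 in Control. Its groups overlapped, with Model 7 lowest. Its differences were 0.42 in LIPUS against Model and -0.96 in Model against Control. The remaining 5 were Canx, the membrane-bound lectin, and the disulfide isomerases Pdia3, Pdia4, Pdia6 and P4hb. Pdia4 ran from 47.8 to 165 in LIPUS, 4.93 in Model 7 and 37.8 to 71.1 in the other Model libraries, and 65.8 to 132 in Control, and its change of -1.43 in Model against Control was not called (limma adjusted p = 0.067). RefSeq names copies of Hsp90b1, Pdia4 and Pdia6.

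Of the regulators, Ddit3 and Atf4 were higher than Control in both LIPUS and Model. Ddit3, which encodes the stress-induced transcription factor CHOP (gene ID 29467), had 10.9, 13.2, 14.6, 12.99 and 19.5 scaled FPKM in LIPUS, 15.7, 6.45, 15.03, 11.8 and 11.0 in Model, and 4.04, 4.97, 4.58, 3.62 and 3.32 in Control. Both groups lay above Control without overlap, Model 7 being the nearest to it. By limma Ddit3 was 1.76 ± 0.23 higher in LIPUS (adjusted p = 0.00011, 3.38-fold) and 1.48 ± 0.23 higher in Model (adjusted p = 0.00023, 2.78-fold). It kept this sign without scaling, at 0.34 and 0.71, neither of them called.

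Atf4, the factor that activates Ddit3 when translation is restrained (gene ID 79255), had 287, 236, 250.4, 239.6 and 278 scaled FPKM in LIPUS, 232, 281, 277, 238 and 178 in Model, and 159.8, 116, 131, 132 and 121 in Control. LIPUS and Model overlapped and lay above Control throughout. It was 0.97 ± 0.15 higher in LIPUS (limma adjusted p = 0.00037; -0.46 without scaling) and 0.86 ± 0.15 higher in Model (adjusted p = 0.00053; 0.08 without scaling). Neither gene differed between LIPUS and Model beyond the threshold, with 0.28 for Ddit3 and 0.11 for Atf4. Xbp1, whose spliced form drives chaperone and ERAD genes, was -0.69 ± 0.21 in LIPUS against Control (limma adjusted p = 0.027), with 48.1 to 70.5 scaled FPKM in LIPUS, 41.5 to 99.9 in Model and 86.2 to 98.0 in Control. LIPUS and Control did not overlap for this gene. The table counts genes, so spliced and unspliced Xbp1 were not separated. Atf6, the membrane-bound sensor, ran from 2.31 to 8.60 in LIPUS, 1.45 in Model 7 and 13.2 to 26.2 in the other Model libraries, and 8.72 to 13.7 in Control, and was not called.

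With all 15 libraries, 2 of the 6 ERAD genes were called lower in Model against Control and 1 in LIPUS against Control. Edem1, which targets misfolded glycoproteins for disposal (gene ID 297504), had 15.4, 9.56, 8.15, 21.2 and 14.6 scaled FPKM in LIPUS, 14.2, 7.09, 15.4, 30.0 and 14.2 in Model, and 43.5, 22.9, 30.8, 34.8 and 30.7 in Control. LIPUS lay below Control throughout, and Model 9 alone reached into the Control range. The differences by limma were -1.29 ± 0.33 in LIPUS (adjusted p = 0.011) and -1.12 ± 0.33 in Model (adjusted p = 0.016) against Control; with the length trend removed they were -0.82 and -0.66, not called. Syvn1, the ubiquitin ligase Hrd1 (gene ID 361712), had 9.66, 6.51, 10.1, 13.4 and 17.1 scaled FPKM in LIPUS, 9.07, 1.57, 8.22, 11.8 and 6.67 in Model, and 19.5, 14.4, 22.8, 19.2 and 14.3 in Control. Model lay wholly below Control (-1.49 ± 0.42, limma adjusted p = 0.013), and LIPUS overlapped both.

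Herpud1, which links Hrd1 to the derlins and was the most abundant ERAD member (gene ID 85430), had 15.8, 24.1, 18.8, 32.3 and 28.0 scaled FPKM in LIPUS, 56.0, 8.05, 72.1, 98.1 and 62.6 in Model, and 51.2, 35.1, 29.9, 41.6 and 30.1 in Control. The other 4 Model libraries lay above all Control libraries, and Model 7 lay below all 14 others. It was not called with all libraries (-0.99 in LIPUS against Model, 0.32 in Model against Control). Sel1l, the adaptor of Hrd1, was -1.14 in LIPUS and -1.37 in Model against Control and not called with all libraries. Derl1 ran from 12.3 to 19.8 in LIPUS, 3.07 in Model 7 and 33.5 to 56.2 in the other Model libraries, and 19.3 to 22.5 in Control; 5 pseudogenes of it are named in RefSeq. Derl2 was not called with all libraries. Without Model 7, all 6 ERAD genes were called lower in LIPUS against Control, where 19.8% of all tested genes were. Their changes there stayed almost as they were, as for Derl1 (-0.56 with all libraries, -0.57 without Model 7). With all libraries and the length trend removed, none of the 6 was called in LIPUS against Control (limma adjusted p 0.081 to 0.61). In Model against Control without Model 7, Herpud1 (0.94) and Derl1 (1.00) were called higher and Edem1 and Syvn1 lower. There 21.2% of all tested genes were called higher and 25.9% lower.

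Model 7 held low levels of most of the machinery. It was the lowest Model library for 39 of 47 members, against 39.8% of all tested genes, and for 35 of 47 it was under 0.5 times the median of the other 4 Model libraries, against 29.0% of all genes. All 9 lumenal chaperones, all 6 lectin and disulfide chaperones and all 6 ERAD genes were lowest in it. Model 7 was the highest Model library for 6 of 47 members (12.8%), among them 3 of the 5 SRP genes, against 34.0% of all tested genes. The 47 genes together took 0.846% of nuclear reads in Model 7 and 1.95% to 2.82% in the other Model libraries, against 1.60% to 2.78% in LIPUS and 2.11% to 3.08% in Control. Model 7 also had the highest macrophage marker sum of Model (269.6, against 87.1 to 133 in the other 4), the lowest fibroblast sum (52.3 against 98.8 to 153), the lowest plasma and B cell sum (0.334 against 2.64 to 6.42), the lowest smooth muscle sum (71.0 against 288 to 609), the lowest seminal vesicle sum (39.8 against 57939 to 99357), the lowest mast cell sum (0.968 against 1.13 to 2.07) and the lowest luminal epithelial sum (429 against 711 to 921). The part of these differences in the result was not tested.

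With Model 7 left out, 15 members rose and 6 fell in Model against Control, where 21.2% of all tested genes rose and 25.9% fell. In LIPUS against Model, 4 members rose and 21 fell, where 15% of all genes rose and 17.1% fell. In LIPUS against Control, 8 members rose and 18 fell, where 14.6% and 19.8% of all genes did; here the fold changes stayed almost as they were, with a member median of -0.42 against -0.41, and the estimated spread became smaller. The member median became 0.08 in Model against Control, where that of all genes was -0.11, and -0.52 in LIPUS against Model, where that of all genes was -0.06. The 9 members newly called higher in Model against Control were Derl1, Herpud1, Manf, Rpn2, Sec61a1, Sec62, Spcs1, Ssr2 and Ssr4, and Srp72 was newly called lower. The 13 newly called lower in LIPUS against Control were Atf6, Canx, Dad1, Derl1, Derl2, Dnajb11, Herpud1, Hyou1, P4hb, Sec61a1, Sel1l, Ssr3 and Syvn1, with changes of -0.55 (Canx) to -1.14 (Sel1l). Leaving out Model 7 also set Model apart by markers of lobe, seminal vesicle and luminal epithelium. Its dorsolateral sum was then 97840 to 180312, above LIPUS (4623 to 44864) and Control (2324 to 35226) without overlap. Its ventral sum was 250.5 to 19962, below Control (82222 to 137455) and overlapping LIPUS (11825 to 192020). Its seminal vesicle sum was 57939 to 99357, above LIPUS (473 to 22375) and Control (281 to 54763). Its luminal epithelial sum was 711 to 921, above LIPUS (422 to 574) and Control (365 to 479). The macrophage, smooth muscle, and plasma and B cell sums still overlapped Control. Fibroblast and mast cell sums lay below Control with and without Model 7. The part of these differences in the calls without Model 7 was not tested.

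The 21 members lower in LIPUS against Model without Model 7 came from all 8 roles, with 6 of 9 translocon and 2 of 3 signal peptidase genes among them. Those with the largest changes, chosen after their values were seen, were Rpn2 at -1.89 (limma adjusted p = 0.00074), Sec61a1 at -1.75 (adjusted p = 0.00061), Atf6 at -1.73 (adjusted p = 0.0019), Spcs1 at -1.69 (adjusted p = 0.00074), Herpud1 at -1.62 (adjusted p = 0.00048) and Derl1 at -1.57 (adjusted p = 0.00025). The other 15 were Canx, Derl2, Dnajb11, Manf, Rpn1, Sdf2l1, Sec62, Sec63, Spcs2, Srp9, Srp19, Ssr1, Ssr2, Ssr3 and Xbp1. For the first 6 genes the LIPUS libraries all lay below the 4 Model libraries. This follows largely from choosing the largest changes and adds no support to them. The share of all tested genes so separated was not computed. Ost4, Spcs3, Srp68 and Srp72 were higher in LIPUS than in the 4 Model libraries. The Spcs3 difference was 1.78 (adjusted p = 0.00049), so the call on Spcs3 holds with and without this library.

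**Figure D3:**
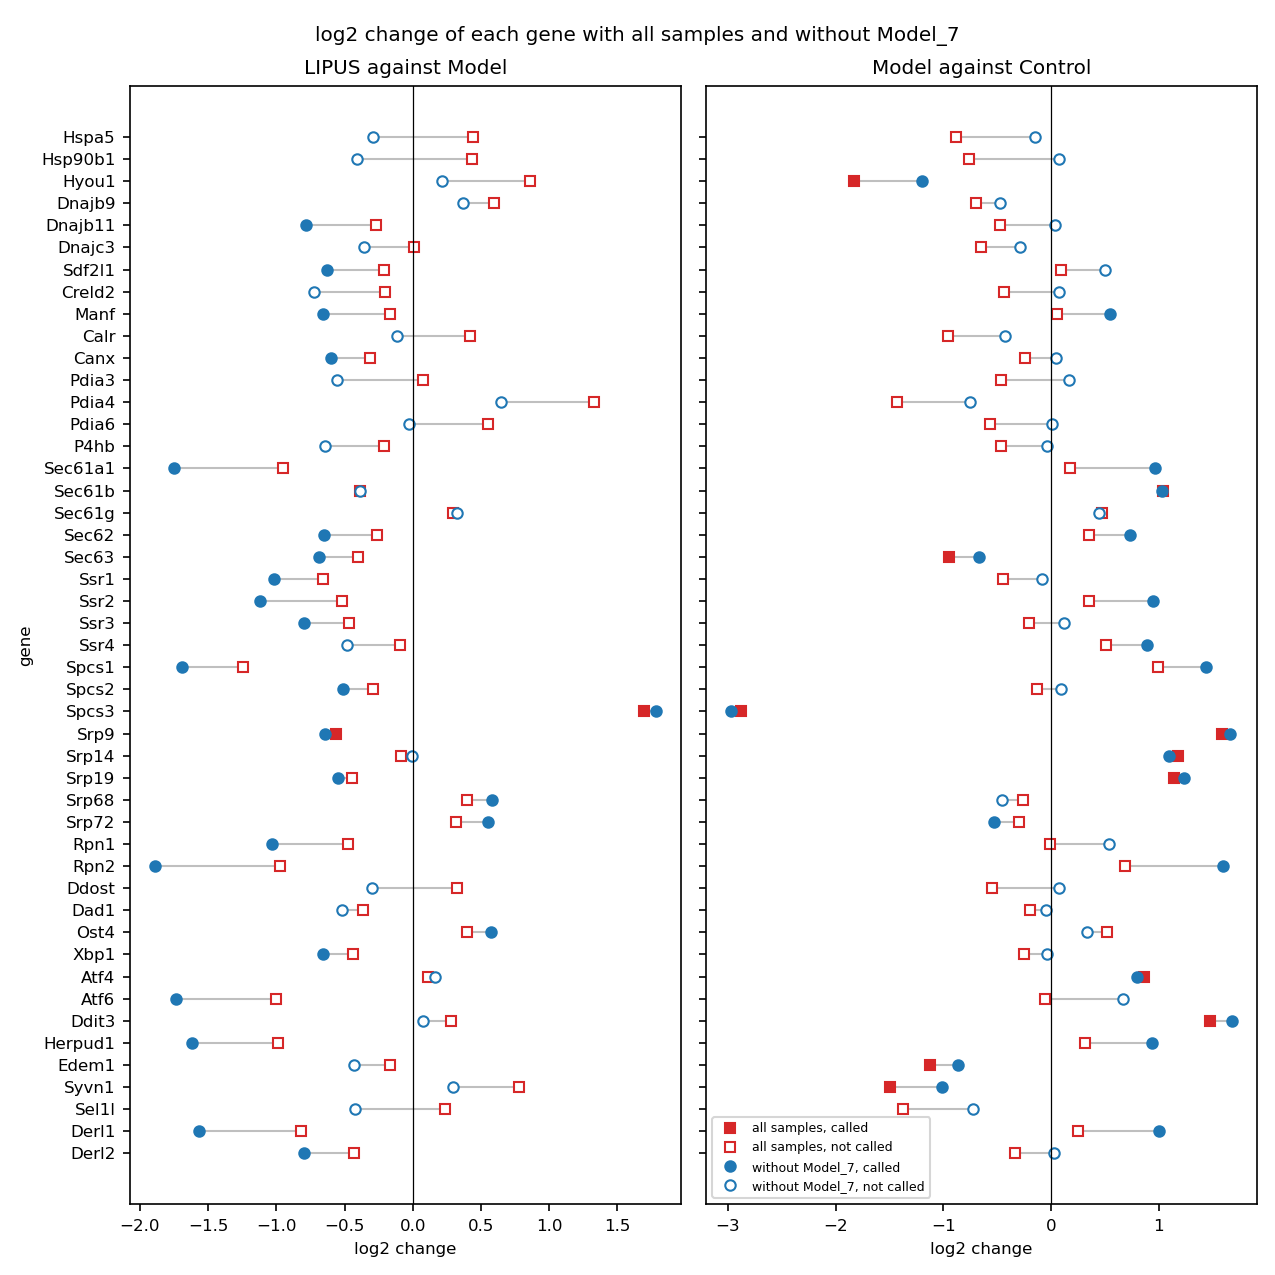
log2 change of each gene (rows, in role order) in LIPUS against Model (left) and Model against Control (right), with all 15 libraries (squares) and without Model 7 (circles); filled symbols are called. Most circles lie left of their squares in LIPUS against Model and right of them in Model against Control; Spcs3, Srp9, Srp14 and Srp19 are filled in both settings of Model against Control.

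Changes ran with gene length. In Model against Control the median change of all tested genes was 0.77 for genes up to 1 kb, of which 44.5% were called higher, and -0.57 for genes over 6 kb, of which 35.7% were called lower; in LIPUS against Control the medians were 0.73 and -0.58. In LIPUS against Model the medians of the same classes were -0.01 and -0.06. The 6 members called higher in Model against Control were 562 to 1708 bases long. Of the 5 called lower, Spcs3 had 763 bases and the other 4 had 3541 to 5954. Spcs3 thus fell among genes of a length class whose median rose. Srp9, Ddit3 and Atf4 lay above the median of their own class, 0.22 for genes of 1 to 2 kb in Model against Control. Sec61b (1.04), Srp14 (1.18) and Srp19 (1.14) lay above theirs, 0.77 for genes up to 1 kb. Genes called higher are likely to lie above such a median. Once the trend with length was removed in each library, an alternative added after seeing the data, 4 members rose (Atf4, Ddit3, Srp9 and Srp14) and 5 fell (Dad1, Hyou1, Sec61g, Spcs3 and Syvn1) in Model against Control, with Spcs3 at -3.69. Of all 12490 tested genes, 1898 rose and 1763 fell in that comparison. In LIPUS against Control 3 members rose (Atf4, Ddit3 and Srp9) and 4 fell (Dad1, Sec63, Spcs3 and Xbp1). There 1036 of all tested genes rose and 1062 fell. In LIPUS against Model, Spcs3 rose (1.70) and Srp9 fell (-0.64), as without the correction, where 349 of all tested genes rose and 362 fell.

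**Figure D4:**
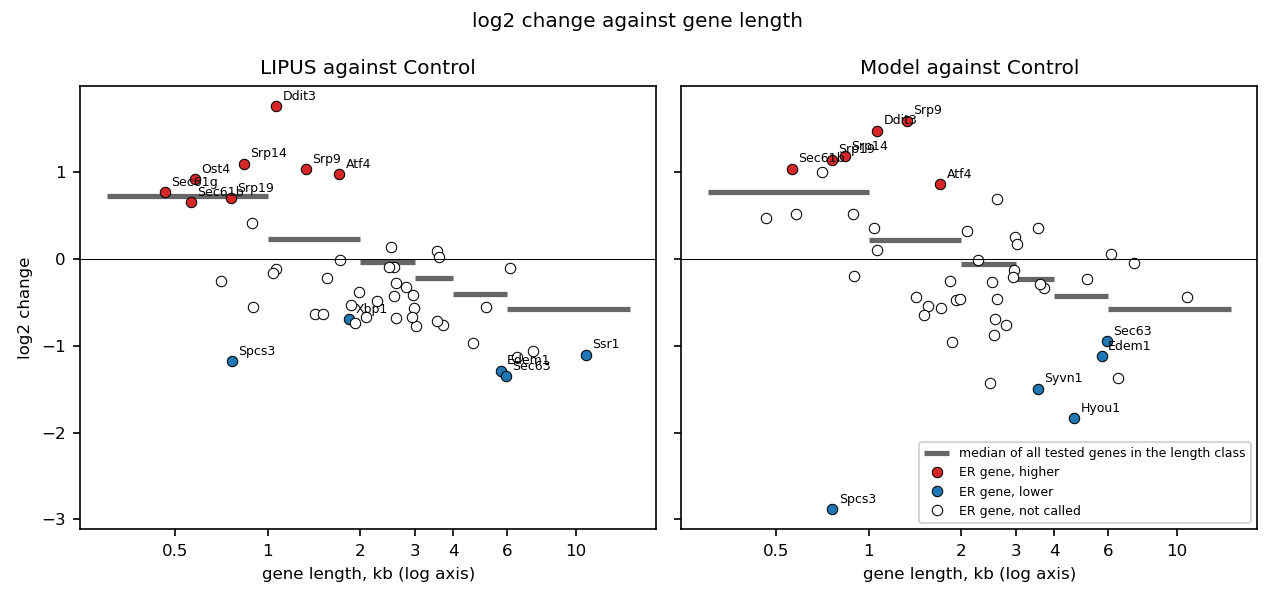
log2 change of the 47 genes against gene length in kb (log axis) in LIPUS against Control (left) and Model against Control (right); red points are called higher, blue lower, white not called, and grey bars give the median of all tested genes in each length class. The red points lie at short lengths and the blue ones mostly at long lengths, with Spcs3 far below the bar of its class in both panels.

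The members also varied within groups to different degrees. The highest library was a median of 2.36 times the lowest in LIPUS, 5.39 times in Model (1.72 times without Model 7) and 1.37 times in Control. Within LIPUS, library 7 was the lowest for 24 of the 47 genes and library 9 the highest for 27. Within Model, library 9 was the highest for 34 (72.3%), against 23.2% of all tested genes. Within Control, library 7 was the lowest for 32 and library 6 the highest for 28. The share over all tested genes was not computed for LIPUS and Control, so those counts are not shown to be particular to the members. Atf4 varied least in LIPUS, where its highest value was 1.22 times its lowest, and Atf6 most, at 3.73 times.

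Other genes of the same pathways were taken from 6 lists. Their counts stand against the shares of all tested genes called higher and lower, which were 2.73% and 1.49% in LIPUS against Model, 15.3% and 20.2% in Model against Control, and 11.6% and 14.3% in LIPUS against Control. Of 17 other translocation and targeting genes, 1 was higher and 1 lower in LIPUS against Model, 3 and 6 in Model against Control, and 1 and 5 in LIPUS against Control. Hspa13, a microsomal chaperone ATPase, had 6.27, 3.83, 4.26, 9.04 and 9.15 scaled FPKM in LIPUS, 1.34, 1.71, 0.847, 0.12 and 0.133 in Model, and 13.6, 11.2, 12.3, 12.7 and 11.2 in Control, with no overlap between groups. It was 3.23 ± 0.53 higher in LIPUS than in Model (limma adjusted p = 0.0076) and -4.21 ± 0.53 in Model against Control (adjusted p = 3.5e-05), the Model values resting on as few as 6 reads. Of 22 other folding genes tested, 1 was higher and 0 lower in LIPUS against Model (2 and 1 at an unadjusted p under 0.05 in limma), 1 and 7 in Model against Control, and 1 and 5 in LIPUS against Control. P4ha1, a collagen prolyl hydroxylase subunit, followed the order of Spcs3, with 3.35, 1.50, 2.02, 2.94 and 4.10 in LIPUS, 0.714, 1.29, 0.849, 0.41 and 0.62 in Model, and 5.97, 4.67, 6.49, 7.16 and 6.10 in Control. Its change was 1.71 ± 0.30 in LIPUS against Model (limma adjusted p = 0.010) and -2.88 ± 0.30 in Model against Control (adjusted p = 1.1e-05); the call against Model was lost by limma-voom and when only the 2 groups were fitted.

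Of 19 other genes of the unfolded protein response, 1 was higher and 0 lower in LIPUS against Model (3 and 3 at an unadjusted p under 0.05 in limma, 0 and 0 called by limma-voom), 2 and 4 in Model against Control, and 1 and 6 in LIPUS against Control. Creb3l2, a membrane-bound transcription factor of secretory cells, was -3.29 ± 0.26 in Model against Control (limma adjusted p = 2.6e-06), with 1.99 to 3.06 scaled FPKM in LIPUS, 0.682 to 2.16 in Model and 10.3 to 14.1 in Control. Crebrf, a regulator of CREB3, was 1.01 ± 0.24 in LIPUS against Model (adjusted p = 0.034), a call lost in 15 of the 27 other settings. The 2 genes called higher in Model against Control, named after their values were seen, were Nupr1, a stress-induced nuclear protein (1.84 ± 0.27, limma adjusted p = 0.00014), and Cebpb, a transcription factor (0.80 ± 0.23, adjusted p = 0.014). Nupr1 was also the gene called higher in LIPUS against Control (2.31 ± 0.27, adjusted p = 5.6e-05). Of 18 other ERAD genes, 0 were called in LIPUS against Model, 1 rose and 4 fell in Model against Control, and 0 rose and 3 fell in LIPUS against Control. Edem3, a mannosidase, was -2.29 ± 0.23 in Model against Control (limma adjusted p = 8.3e-06).

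Of 16 other glycosylation genes, 0 were called in LIPUS against Model, 1 rose and 2 fell in Model against Control, and 0 rose and 3 fell in LIPUS against Control. Stt3b, a catalytic oligosaccharyltransferase subunit, was -1.87 ± 0.30 in Model against Control (limma adjusted p = 0.00025). Of 19 genes of ER-to-Golgi transport, 0 were called in LIPUS against Model, 1 rose and 4 fell in Model against Control, and 0 rose and 3 fell in LIPUS against Control. In limma at an unadjusted p under 0.05, LIPUS against Model had 3 higher and 3 lower in the other ERAD list, 0 and 0 in the glycosylation list and 2 and 2 in the transport list, and limma-voom called 0 in each. In LIPUS against Control these 3 lists had 0 higher at an unadjusted p under 0.05 and 0 higher by limma-voom. Lman1, the cargo receptor ERGIC-53, was -1.97 ± 0.31 in Model against Control (limma adjusted p = 0.00023).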

How the data were processed

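The authors deposited 1 table of FPKM per gene for 15 rat prostate libraries. The tools named in the submitters' notes on processing are HTSeq, HISAT2, DESeq2, fastp, SAMtools and R 3.2.0, and the build is rn6; roles, settings and strand use are not given in the sources used here. Whole reads were recovered from the deposited FPKM for all 22436 genes within 0.001 reads, which gave depth and gene length; levels were tested as log2 of the deposited FPKM after scaling by each library's median ratio over 10313 genes, in place of the values as deposited, with a pseudocount of 0.1. Genes above 0.5 FPKM in at least 5 libraries were fitted together by limma 3.58.1 (R 4.3.3) with Benjamini-Hochberg adjustment; the fit was tested on simulated data. Read counts of libraries of a group differed by more than counting noise (chi-square per degree of freedom at least 80.3), and each library was counted as 1 sample. The lowest read count behind a member's value was 185. The members, lists and markers were chosen with earlier results of these data known. Tests are given for up to 3 called members a role and comparison with the smallest p; values per library are given for up to 2 of these a role and for the most abundant member of each role. In each list the called gene with the smallest p was named. Coordinates of promoters are those of GRCr8, not of the authors' build. Alternatives covered scaling, pseudocount, filters, the groups fitted, library weights, a replicate block, voom on recovered reads, gene length and leaving out each library. The sequence of 1 promoter stretch is not reported here.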

Additional observations from a re-analysis of the deposited data

Results flagged for a closer look

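In 2 of 48 groups of 5 values, 1 library lay apart from the other 4 by Dixon's criterion; chance flags about 1 in 20 groups. Sec63 had 20.1 scaled FPKM in LIPUS 9, against 9.01 to 12.2 in the other 4 LIPUS libraries. Srp14 had 92.6 scaled FPKM in Control 8, against 70.1 to 73.7 in the other 4 Control libraries.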

How the results depend on the processing

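With FPKM as deposited, 0 members rose in LIPUS against Control (0 also at an unadjusted p under 0.05) and 42 fell. In LIPUS against Model 10 fell, and in Model against Control 1 rose and 26 fell. Of all 12490 tested genes, 119 rose and 9296 fell in LIPUS against Control and 1657 fell in LIPUS against Model. In Model against Control, 368 of them rose and 5382 fell. In LIPUS against Control the log2 change then was -0.46 for Atf4, -0.52 for Ost4, -0.78 for Sec61b, -0.67 for Sec61g, -0.34 for Srp14, -0.73 for Srp19 and -0.40 for Srp9. Quantile normalization gave 3 higher and 17 lower in LIPUS against Control (Sec61b -0.14, Sec61g -0.27), 0 lower in LIPUS against Model and 22 lower in Model against Control. Of all tested genes, quantile normalization called 1710 higher and 1554 lower, 218 lower, and 2121 lower in the same order. Scaling by nuclear reads gave 9 lower in LIPUS against Control, 0 in LIPUS against Model and 11 in Model against Control. Of all tested genes, 1781, 76 and 2854 were then lower. With the length trend removed, 3 rose in LIPUS against Control (Ost4 -0.067, Sec61b -0.35, Sec61g -0.34, Srp19 -0.12), and Sec61b was -0.029 in Model against Control. Without the length trend, 1036 of all tested genes rose in LIPUS against Control. Array weights gave 16 lower in LIPUS against Control, 13 lower in LIPUS against Model, and 16 higher and 10 lower in Model against Control. Of all tested genes, array weights called 2650 lower, 1283 lower, and 3435 higher and 4246 lower in the same order. Fitting 2 groups gave 0 higher and 0 lower in LIPUS against Model (1 and 2 at an unadjusted p under 0.05) and 18 lower in LIPUS against Control, and voom gave 0 lower in LIPUS against Model (4 at an unadjusted p under 0.05). Of all tested genes, the 2-group fits called 1 higher and 0 lower in LIPUS against Model and 2274 lower in LIPUS against Control. Voom called 28 of all tested genes lower in LIPUS against Model. The cause of these shifts was not tested. Leaving out 1 library called 92 to 1877 of all tested genes higher and 19 to 2136 lower in LIPUS against Model. The ranges were 1588 to 2652 and 2006 to 3238 in Model against Control. They were 1141 to 1825 and 1262 to 2467 in LIPUS against Control. Of the members, it called 1 to 4 higher and 0 to 21 lower in LIPUS against Model. It called 6 to 15 higher and 5 to 8 lower in Model against Control, and 8 higher and 3 to 18 lower in LIPUS against Control. The highest counts came without Model 7, except that 8 fell in Model against Control without Model 9; the 0 in LIPUS against Model came without any 1 of the Control libraries, LIPUS 6, 8 or 10 or Model 8, 9 or 10, and the 3 in LIPUS against Control without Control 6 or 9 or LIPUS 7 or 10. Replicate numbers did not pair the libraries (r -0.42 to 0.25 over 15 pairs, 3 over 0.1, 0 of 15 libraries closest to their own number). With the replicate block, 0 members fell in LIPUS against Model and 9 in Model against Control. Of all tested genes, 24 and 2361 fell there. Of 918 values of 34 named changes, 847 kept direction and side of the threshold, 57 lost the call and 14 turned. Xbp1 in LIPUS against Control lost its call without Control 6, 7 or 9 or LIPUS 7 or 10.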
